A study of Mus musculus with 96 samples.

Results

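The Zscan4 family of mouse embryonic stem cells (ESCs) is described here by its RNA counts in 7 count tables. The family has 6 named members, Zscan4a to Zscan4f, and was selected on a pattern already seen in these tables, so its own fold changes are given as a description and without a test. Copies past the threshold of the fit are counted as called higher or lower only as part of that description. The selection made such calls likely beforehand, so they test nothing, and copies this alike are not separate results. Where the controls hold few counts, a copy can also enter the fit through the other arm alone. The counts of copies called stand beside the same share over all genes, and nothing is read from them. Its rows were found by matching the symbols to the gene identifiers of the tables, which hold 37620 genes each. A row was found for 5 of the 6 members, Zscan4b, Zscan4c, Zscan4d, Zscan4e and Zscan4f, and no row was matched to Zscan4a. The copies are nearly identical, so the main measure is the family sum, the summed counts of the 5 rows, given as CPM, counts brought to the same library size within each table.

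Zscan4 proteins carry a SCAN domain and zinc fingers. The genes are switched on in the embryo at the 2-cell stage and, in ESC cultures, in short bursts in a minority of cells, where they are known for lengthening telomeres and for marking a state that resembles the 2-cell embryo. The transcription factor Dux and the paired factors Dppa2 and Dppa4 are known to act upstream of them, while heterochromatin factors and non-canonical polycomb complexes are known to hold such genes silent. RYBP is a subunit of non-canonical polycomb complexes, and WDR5 is a subunit of complexes that methylate lysine 4 of histone H3. In bulk RNA, more Zscan4 RNA from more positive cells and more RNA per positive cell cannot be told apart.

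The series asked how RYBP acts with Trithorax and Polycomb complexes in cell fate, with ESCs grown in serum and LIF, and 26 of its 96 samples are RNA libraries, 2 in each of 13 groups. In line R7.15, Rybp+/+ are Rybp-floxed ESCs and Rybp-/- are the same ESCs after 4 days in 5 µM 4-hydroxytamoxifen (4-OHT), so the knockout and the exposure to 4-OHT cannot be told apart. Also in R7.15, WT.RYBP and RYBP phase disruption carry floxed RYBP and CreERT2 at Rosa26, received 4-OHT in both arms, and hold an added wild-type RYBP or a RYBP lacking 21 amino acids (21aa). In line R1, shEV is the empty-vector control of shRybp and of shWdr5, and WT ESC is the control of a genotype labelled TF-AA mutation, whose changed residues are not given in the sources used here. In line J1, Tet.RYBP cells with a doxycycline-inducible RYBP were compared with doxycycline (DOX) and with vehicle. The line rTRS carries a DOX-induced Rybp_Stat3 integration and was compared with DOX and without it (NTC). The Tet.RYBP columns headed NTC were taken as vehicle, and 1 column of the rTRS table with the unexplained prefix S5 was taken as DOX replicate 2, so values of these arms rest on that reading. No line without a transgene was treated with DOX, so DOX itself cannot be told apart from the induced gene. The labels do not say that replicates were separate cultures, so every p-value measures only the spread between these samples.

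All 5 rows lie in a cluster on chromosome 7 that spans 502 kb in build mm9, chr7:11486098-11988090. Zscan4b (ENSMUSG00000091643) is at chr7:11486098-11490399 on the minus strand. Zscan4c (ENSMUSG00000054272) is at chr7:11591071-11595896 on the plus strand. Zscan4d (ENSMUSG00000090714) is at chr7:11746992-11751497 and Zscan4e (ENSMUSG00000091880) at chr7:11891727-11896031, both on the minus strand. Zscan4f (ENSMUSG00000070828) is at chr7:11983264-11988090 on the plus strand. A further row, Zscan4-ps2, named as a pseudogene, lies just outside at chr7:12099659-12104460.

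The copies have nearly the same promoters, and the stretch before the start is shown because the members moved together. RefSeq promoter sequences, in build GRCm38.p6, were matched for 4 members. The 120 bases before each annotated start are given in the direction of the gene, with the motif TATAAA in capitals.

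Zscan4b (chr7:10905051-10905170, minus strand): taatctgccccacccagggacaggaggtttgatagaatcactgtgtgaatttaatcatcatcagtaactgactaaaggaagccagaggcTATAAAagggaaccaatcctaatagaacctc
Zscan4c (chr7:11005625-11005744, plus strand): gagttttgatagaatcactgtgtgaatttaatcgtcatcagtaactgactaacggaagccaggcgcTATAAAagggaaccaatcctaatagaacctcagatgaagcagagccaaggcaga
Zscan4d (chr7:11166149-11166268, minus strand): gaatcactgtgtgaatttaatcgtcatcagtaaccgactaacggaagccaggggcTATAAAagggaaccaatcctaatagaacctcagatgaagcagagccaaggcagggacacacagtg
Zscan4f (chr7:11397795-11397914, plus strand): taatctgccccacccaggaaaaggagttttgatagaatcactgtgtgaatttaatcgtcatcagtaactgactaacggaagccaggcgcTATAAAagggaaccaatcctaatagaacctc

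In windows of 250 bases before to 50 after the start, the 4 promoters were 95.3% to 99.3% identical in pairs over the 266 to 300 bases that aligned, with Zscan4c and Zscan4f the most alike (275 of 277 aligned bases). The motif TATAAA began 31 bases before the start of Zscan4b and Zscan4f, 54 before that of Zscan4c and 65 before that of Zscan4d. On either strand, 13.6% of all 32851 promoters of the same length held TATAAA. The motifs TGCACAC and GATTNAATC were not in any of the 4 windows on either strand, and 4.40% and 0.268% of all promoters held them.

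The transcripts were as alike. In pairs, the longest annotated transcripts of the 5 members were 94.1% to 99.7% identical, with Zscan4b and Zscan4e the closest. Of all windows of 100 bases along a transcript, the share found in that copy and in no other member or Zscan4-ps2 was 73.5% for Zscan4d, 34.3% for Zscan4c, 21.9% for Zscan4b, 15.9% for Zscan4e and 4.59% for Zscan4f. Reads that aligned to more than 1 place were not counted, so counts of single copies are uncertain and Zscan4d is the copy whose reads are best told from the others. Such reads made up 4.31% to 6.13% of the alignments listed in 4 tables, 13.9% to 14.9% in the shRybp table and 18.6% to 19.4% in the rTRS table. The table of Tet.RYBP does not give them.

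The libraries held 14512857 to 81049618 counts on genes. ESC markers (8 of 9 with a row) summed to 3141 to 8346 CPM in every library, and mesoderm markers to 2.10 to 39.4 CPM. Rybp counts followed the labels in the knockout (110 and 110 CPM in Rybp+/+, 24.8 and 25.0 in Rybp-/-) and in the knockdown (85.7 and 86.4 CPM in shEV, 35.8 and 36.6 in shRybp). Wdr5 fell from 350 and 343 to 60.0 and 58.2 CPM with shWdr5, and Rybp rose from 135 and 145 to 522 and 535 CPM with DOX in Tet.RYBP. In rTRS, Rybp stood at 113 and 110 CPM in NTC and at 102 and 99.8 CPM in the libraries labelled DOX. Stat3 stood at 159 and 172 against 191 and 188 CPM there and was called higher (log2 fold change 0.20, SE 0.06). The counts therefore do not bear out the label of an induced Rybp, and those libraries are called by their label only. Whether reads of the Rybp_Stat3 integration fall on these gene rows was not tested. The shEV samples of the shRybp and the shWdr5 tables are the same 2 samples, so these comparisons share controls. They hold 41697967 and 38961268 counts in the first table and 21241931 and 19731613 in the second, so what 1 count stands for differs between tables, and intervals from counts treat each count as independent.

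The level of the family differed widely between control groups. In Rybp+/+ the family sum was 0.573 and 0.348 CPM, from 45 and 28 counts. In WT ESC it was 0.955 and 0.148 CPM, from 20 and 3 counts, and in Tet.RYBP vehicle 0.775 and 1.22 CPM. The other controls were far higher, at 31.3 and 34.0 CPM in rTRS NTC, 56.5 and 55.0 CPM in shEV and 62.0 and 56.6 CPM in WT.RYBP. The 2 controls labelled R1, WT ESC and shEV, therefore lay far apart in this order, and so did Rybp+/+ and WT.RYBP of R7.15. The range of WT ESC overlapped those of Rybp+/+ and of Tet.RYBP vehicle, whereas Rybp+/+ lay below Tet.RYBP vehicle without overlap. The libraries of shEV and WT.RYBP met at about the same level, the highest of shEV at 56.5 and the lowest of WT.RYBP at 56.6 CPM. The tables were counted and scaled separately, so these levels are set side by side without a test.

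**Figure D1:**
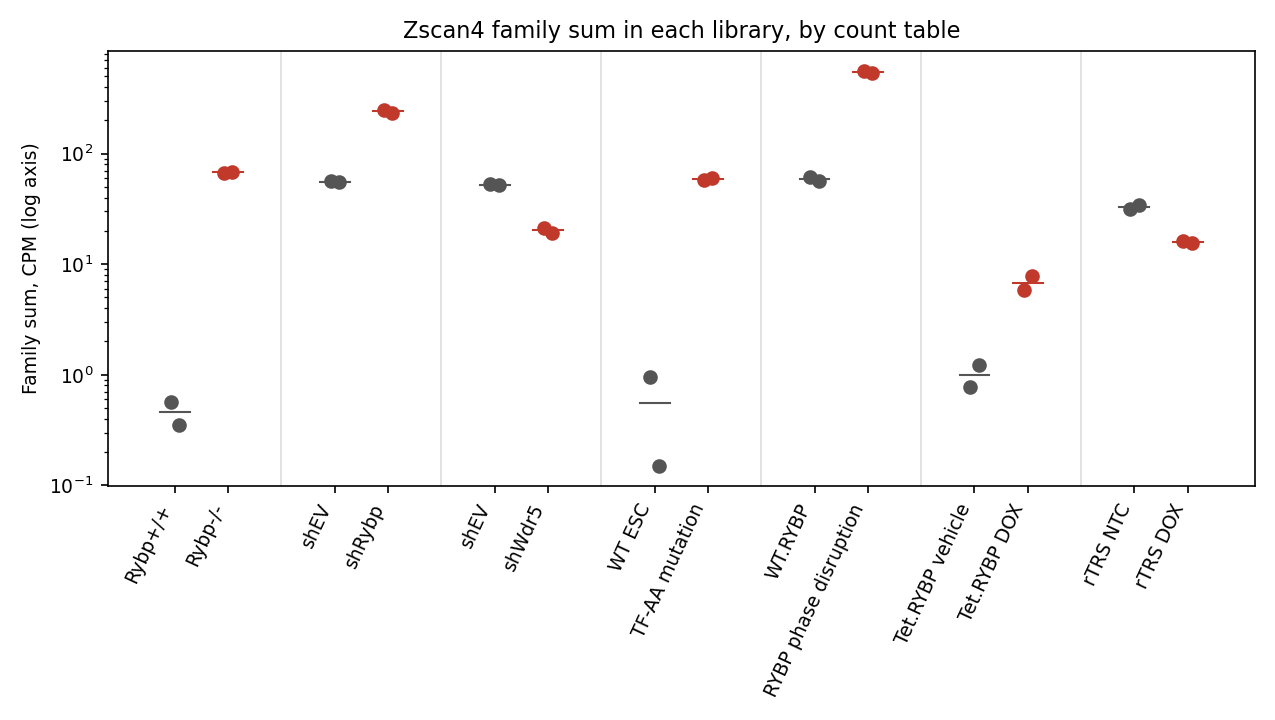
Family sum of the 5 Zscan4 rows in CPM on a log axis for each library, by count table, with controls in grey, the other arm in red and a line at the group mean (n = 2). Controls sat near 1 CPM or below in 3 tables and between 31.3 and 62.0 CPM in the other 4, and in no table did the arms overlap.

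Loss of RYBP went with more Zscan4 RNA in both lines. In Rybp-/- the family sum was 67.2 and 68.4 CPM against 0.573 and 0.348 CPM in Rybp+/+. Both Rybp-/- libraries lay far above both controls, a difference of 7.20 on the log2 scale (SE 0.10, n = 2 and 2) or 147-fold. All 5 copies with a row passed the filter on low counts. As a description of a family selected on such values, all 5 lay past the threshold for higher (edgeR, adjusted p under 0.05). Of 16955 genes, 22.8% were called higher and 22.7% lower. The copies had 7 to 33 counts each in both controls together, so a copy could pass that filter through Rybp-/- alone. Zscan4c, the copy with the most counts in Rybp-/-, went from 0.102 and 0.0373 to 20.6 and 20.7 CPM. Zscan4e had the highest level in the controls, 0.280 and 0.137 CPM, and reached 13.8 and 14.9 CPM.

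With shRybp the family sum was 249 and 234 CPM against 56.5 and 55.0 CPM in shEV. The groups did not overlap, and the difference was 2.12 on the log2 scale (SE 0.05, n = 2 and 2) or 4.33-fold. Each of the 5 copies was called higher, where 26.8% of genes were called higher and 26.0% lower, and their log2 fold changes lay close together, between 1.96 and 2.19. The step was smaller than in the knockout table, the control level was higher, and shRybp ended above Rybp-/-. The 2 comparisons differ in line, in the means of depletion and in table, and their difference was not tested.

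Replacing wild-type RYBP by RYBP without the 21aa gave the highest level in the series. The family sum was 62.0 and 56.6 CPM in WT.RYBP and 564 and 533 CPM in RYBP phase disruption, with no overlap. The difference was 3.21 on the log2 scale (SE 0.05, n = 2 and 2) or 9.25-fold. Every one of the 5 copies was called higher, where 16.1% of 14575 genes were called higher and 17.0% lower. Zscan4c alone reached 176 and 167 CPM from 18.2 and 16.0 CPM. Both arms had received 4-OHT, and WT.RYBP, with Rybp at 749 and 753 CPM, stood near the level of Rybp-/- in the other table. Rybp itself was lower in RYBP phase disruption, at 662 and 626 CPM (log2 fold change -0.22, SE 0.04).

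In the TF-AA mutation libraries the family sum was 57.5 and 60.0 CPM against 0.955 and 0.148 CPM in WT ESC. The mutant libraries lay close together and far above both controls, a difference of 6.70 on the log2 scale (SE 0.23, n = 2 and 2) or 104-fold. The control replicates were 20 and 3 counts, and the difference was 8.57 without WT ESC replicate 1 and 5.92 without WT ESC replicate 2. The 5 copies were called higher, where 14.4% of genes were called higher and 16.1% lower. The number of genes called, 4412, was 2724 without TF-AA mutation replicate 1 and 2733 without replicate 2. Zscan4b, Zscan4e and Zscan4f had 3, 2 and 3 counts in all in WT ESC and 139, 431 and 477 in the mutant. For Zscan4e this is a ratio of 228 with a 95% exact interval of 62.8 to 1892, which covers counting error only. Rybp did not pass the test in this table (122 and 139 against 112 and 118 CPM).

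Knockdown of Wdr5 went the other way. The family sum was 52.7 and 51.7 CPM in shEV and 21.4 and 19.2 CPM with shWdr5, again without overlap. It was lower by 1.36 on the log2 scale (-1.36, SE 0.08, n = 2 and 2). The 5 copies were called lower, where 31.5% of 15143 genes were called lower and 31.5% higher. Zscan4b had the largest difference in the fit, from 4.07 and 4.66 to 1.12 and 1.15 CPM, and Zscan4e the smallest, from 9.21 and 9.47 to 4.95 and 3.65 CPM. Rybp rose in the same libraries, from 79.9 and 81.3 to 121 and 117 CPM.

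Induced RYBP in J1 did not lower the family. With DOX in Tet.RYBP the sum was 5.79 and 7.86 CPM against 0.775 and 1.22 CPM with vehicle. The DOX libraries lay above both vehicle libraries, by 2.78 on the log2 scale (SE 0.29, n = 2 and 2) or 6.86-fold, yet their level stayed under that of every control group in the shEV, WT.RYBP and rTRS tables. Of the 5 copies, 4 passed the filter and 3 were called higher, where 3.63% of 14937 genes were called higher and 2.39% lower. Without DOX replicate 2 the calls of Zscan4e and Zscan4f were lost, without vehicle replicate 1 that of Zscan4f, and without vehicle replicate 2 Zscan4d was called. The number of genes called, 899, moved to 1566 without Tet.RYBP vehicle replicate 1, 1467 without vehicle replicate 2, 406 without DOX replicate 1 and 409 without DOX replicate 2. Zscan4c went from 3 and 1 counts to 86 and 60. Zscan4d, with 4 and 17 counts under vehicle and 15 and 57 with DOX, overlapped between groups and was not called.

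In the rTRS libraries labelled DOX the family was lower, at 16.1 and 15.7 CPM against 31.3 and 34.0 CPM in NTC. The groups did not overlap, and the sum was lower by 1.04 on the log2 scale (-1.04, SE 0.10, n = 2 and 2). Of the 5 copies, 4 were called lower, where 20.4% of 16291 genes were called lower and 23.0% higher. Zscan4d had the largest difference, from 11.1 and 11.2 to 4.24 and 3.85 CPM, a log2 fold change of -1.47 (SE 0.15), beside -0.76 (SE 0.16) for Zscan4c. Zscan4b, at 2.39 and 2.14 against 1.46 and 1.26 CPM, was not called. Other marker lists moved in the same libraries. Trophectoderm markers (5 of 6 with a row, 4 called higher of 4 tested, with Elf5 near 0) summed to 148 and 133 CPM in NTC and to 945 and 872 CPM under the DOX label. ESC markers summed to 5149 and 4821 and to 3393 and 3141 CPM, and 6 of 8 were called lower. Mesoderm markers (5 of 5 with a row, 2 called higher) summed to 5.42 and 4.21 CPM in NTC and to 39.4 and 36.5 CPM under the DOX label, with T at 1.45 and 1.56 against 31.2 and 29.9 CPM. Neural markers (3 of 5 with a row) summed to 147 and 135 and to 83.2 and 76.3 CPM, with Tubb3 and Pax6 called lower and Nes higher. Of primitive endoderm markers only Dab2 was called, higher at 18.8 and 17.9 against 5.64 and 3.91 CPM. Fibroblast or feeder markers summed to 108 and 104 CPM in NTC and to 93.8 and 88.8 CPM, with 1 called higher and 2 lower. Their part in the lower Zscan4 level was not tested.

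**Figure D2:**
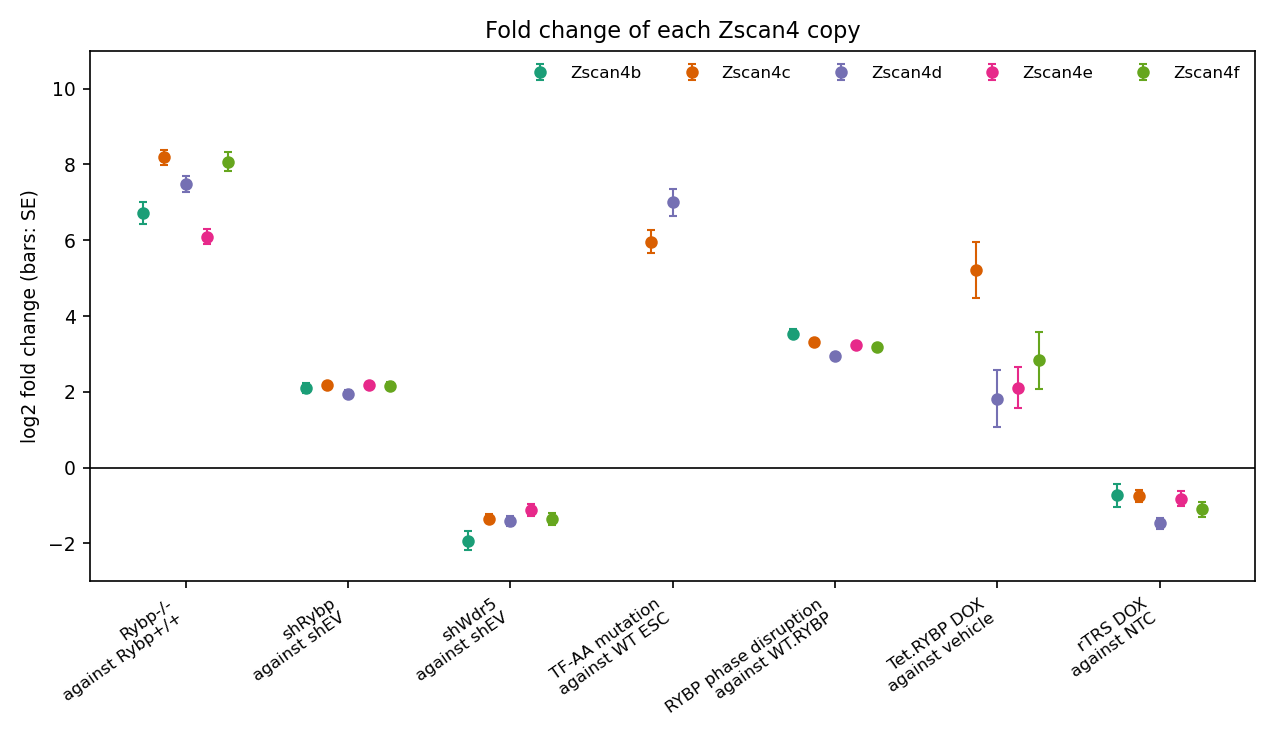
Fitted log2 fold change of each Zscan4 copy with its SE in each comparison, leaving out copies with 3 counts or fewer in the controls or too few for the fit. Copies sat close together with shRybp, near 2, and with RYBP phase disruption, near 3, spread more in Rybp-/- and Tet.RYBP, and lay below 0 with shWdr5 and in rTRS.

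The mix of copies was similar wherever the family was well measured. Over the 18 library columns with at least 500 family counts, Zscan4c gave 23.3% to 31.4% of the counts, Zscan4d 19.9% to 35.5%, Zscan4e 17.3% to 23.4%, Zscan4f 16.0% to 22.2% and Zscan4b 5.88% to 10.6%. Per length, the order in Rybp-/- was Zscan4c (27.2% of the family's counts per kb), Zscan4e (24.9%), Zscan4d (20.9%), Zscan4f (15.3%) and Zscan4b (11.8%). Where the family was near 0, the mix was unlike this and not the same in the 3 control groups. Zscan4e gave 44.1% of the counts in Rybp+/+ and 47.0% in Tet.RYBP vehicle on average, against 21.1% in Rybp-/- and 27.4% with DOX, but these controls rest on 28 to 45 counts a library. In WT ESC Zscan4e gave 19.2%, against 18.9% in the mutant, and Zscan4c 53.3% against 26.4%, from 20 and 3 counts. In rTRS, the share of Zscan4d was 34.3% in NTC and 25.4% under the DOX label.

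**Figure D3:**
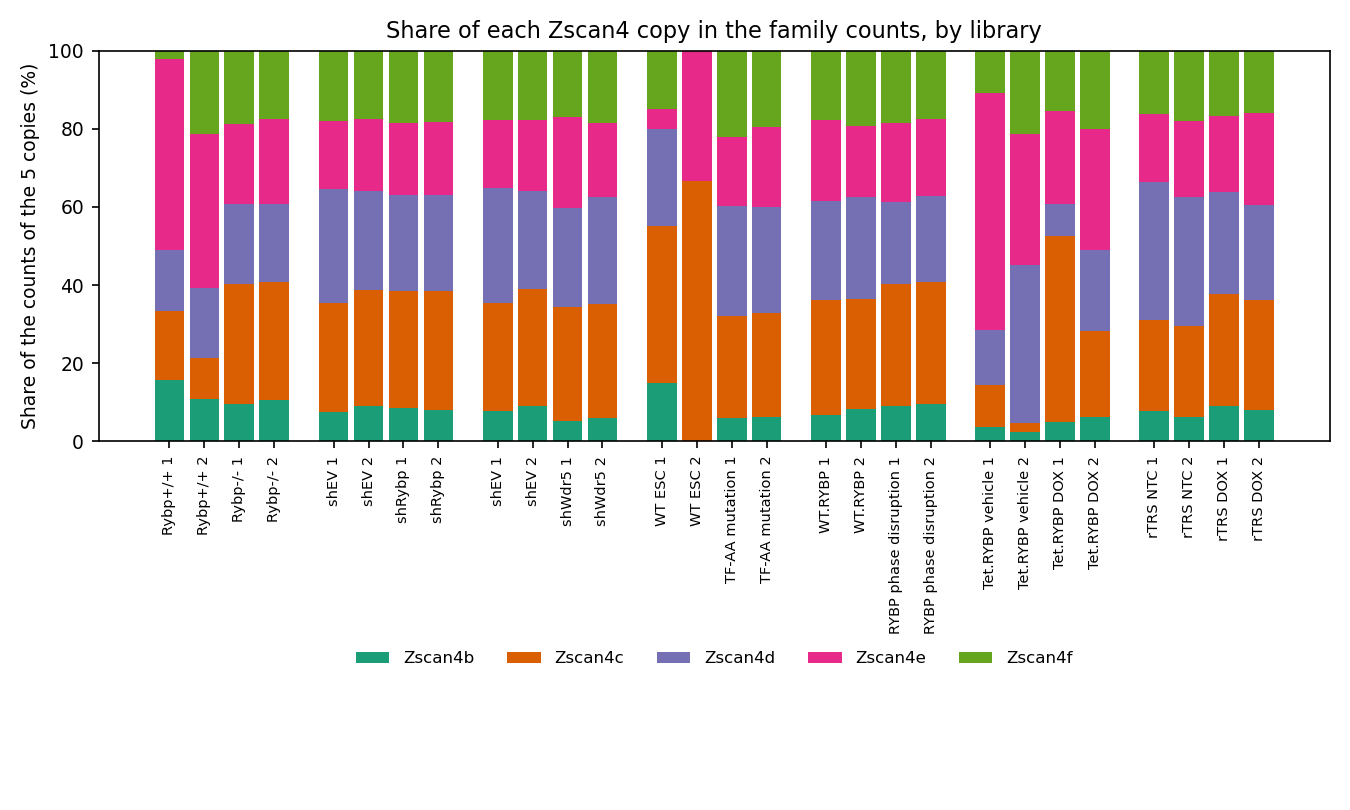
Share of the counts of the 5 Zscan4 rows that each copy took, in %, for each library and grouped by count table. The stacks are alike in the libraries with many counts, and uneven in Rybp+/+, WT ESC and Tet.RYBP vehicle, which hold 3 to 45 family counts each.

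Of the factors known to act upstream of Zscan4 (4 of 6 listed symbols with a row), none was called in the direction of the family in all 7 tables. For Dux this could not be seen, since it had too few counts for the fit in 4 of them. Dux, the transcription factor that opens the genes of the 2-cell stage, had 0 counts in both Rybp+/+ libraries and 28 and 10 in Rybp-/-, at least 13.2-fold higher against a floor of 3 counts in the group. With RYBP phase disruption Dux rose from 4 and 7 to 34 and 60 counts. With shRybp it rose from 12 and 10 to 38 and 39 counts, a call that was lost in DESeq2 and without shEV replicate 1 or either shRybp replicate. In the other 4 tables Dux had too few counts for the fit. It had 8 and 6 counts in shEV and 0 and 1 with shWdr5, 0 and 0 in WT ESC and 8 and 2 with TF-AA mutation, 4 and 1 with vehicle and 0 and 4 with DOX in Tet.RYBP, and 0 and 4 in NTC and 4 and 3 under the DOX label in rTRS. Dppa2 rose by 0.50 (log2, SE 0.04) in Rybp-/- and by 0.81 (SE 0.05) with RYBP phase disruption. Tbx3 rose in the same tables, by 0.77 and 0.17. With shRybp, where the family was higher, Dppa4 fell (-0.53, SE 0.05) and Dppa2 was not called (-0.06). With shWdr5 Dppa2 fell (-0.34, SE 0.05) and Tbx3 rose by 0.18, a call that was lost without shEV replicate 1 or shWdr5 replicate 2. Dppa2 fell also with TF-AA mutation (-0.27, SE 0.08), where the family was higher, and this call and that of Dppa4 were lost without either mutant library. In the rTRS libraries labelled DOX, Dppa2 fell from 83.0 and 79.3 to 29.5 and 28.0 CPM (-1.50, SE 0.08), and Dppa4 (-0.59) and Tbx3 (-0.78) fell with it. With DOX in Tet.RYBP, 0 of the 3 tested passed in edgeR, 1 had an unadjusted p under 0.05, and DESeq2 called 1 lower. Leaving out vehicle replicate 1 gave 1 lower, and leaving out vehicle replicate 2 gave 1 higher and 1 lower.

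Genes that mark the 2-cell-like state moved with the family where it was higher. Of 42 listed symbols, 28 had a row, and between 6 and 20 of these had enough counts in a given table. A gene silent in the controls enters the fit only through the group where it is high, so these counts are a description. In Rybp-/- 18 of 19 tested genes were called higher, with a median log2 fold change of 7.05, or 5.35 with the 7 genes that had 0 counts in the controls set at their lower bound, beside 22.8% of all genes called higher. The median of all genes lay between -0.01 and 0.02 in the 7 tables. With shRybp 17 of 18 were called higher (median 2.03), beside 26.8% of all genes, and with RYBP phase disruption 19 of 20 (median 3.23), beside 16.1%. With TF-AA mutation 12 of 13 were called higher and 1 lower (median 4.89, or 4.22 with 1 such gene at its bound), beside 14.4% and 16.1% of all genes, the lower call being lost without TF-AA mutation replicate 1 and in DESeq2. With DOX in Tet.RYBP 6 of 6 were called higher (median 2.98), or 4 in DESeq2, beside 3.63% of all genes. Among the 6, Pramef8 (0.82) and Pramef12 (0.48) changed far less than this median.

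Gm8300, a marker of the state, had 1 and 0 counts in Rybp+/+ and 349 and 402 in Rybp-/-, a ratio of 781 with a 95% exact interval of 140 to 30869. With shRybp it went from 8.39 and 8.73 to 45.5 and 41.2 CPM. Gm5662 rose from 20.3 and 21.5 to 122 and 114 CPM with shRybp. In the TF-AA mutation libraries it rose from 0.382 and 0.247 to 25.1 and 27.9 CPM, and with DOX in Tet.RYBP from 0.637 and 0.0579 to 3.78 and 2.84 CPM. Tdpoz3 rose from 0.440 and 0.187 to 8.90 and 9.28 CPM with RYBP phase disruption, and Pramef6 from 0.440 and 0.312 to 8.96 and 6.12 CPM. Tdpoz4 was at 0 counts in WT ESC and at 1.39 and 1.17 CPM in the mutant, at least 17.7-fold higher. Several of these genes also have close copies, so their counts are uncertain in the same way.

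With shWdr5, where the family was lower, 3 of 11 tested genes were called lower, 1 higher and 7 were not called, beside 31.5% of all genes in each direction, with a median of -0.37 beside -0.01 for all genes, and the 3 lower calls were 5 without shEV replicate 1, 1 without shEV replicate 2, 5 with the replicate number as a block and 0 in DESeq2. The 1 higher call was 2 without shEV replicate 2 and 0 without shWdr5 replicate 1 or in DESeq2. Gm12794 (-1.04, SE 0.39) and BB287469 (-0.86) fell, whereas Gm5662 stood at -0.23 (SE 0.10) and Gm8300 at -0.26 (SE 0.14), neither of them called. The difference between these genes and the family within the table was not tested. In the rTRS libraries labelled DOX, 3 of 12 were called lower and 1 higher, beside 20.4% and 23.0% of all genes, so the share called lower was near that of all genes. Gm8300 fell there from 3.42 and 3.82 to 1.21 and 0.962 CPM and Gm5662 from 9.51 and 8.67 to 3.64 and 2.69 CPM. Pramef12 rose there (0.51), as it did with shWdr5 (0.26).

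**Figure D4:**
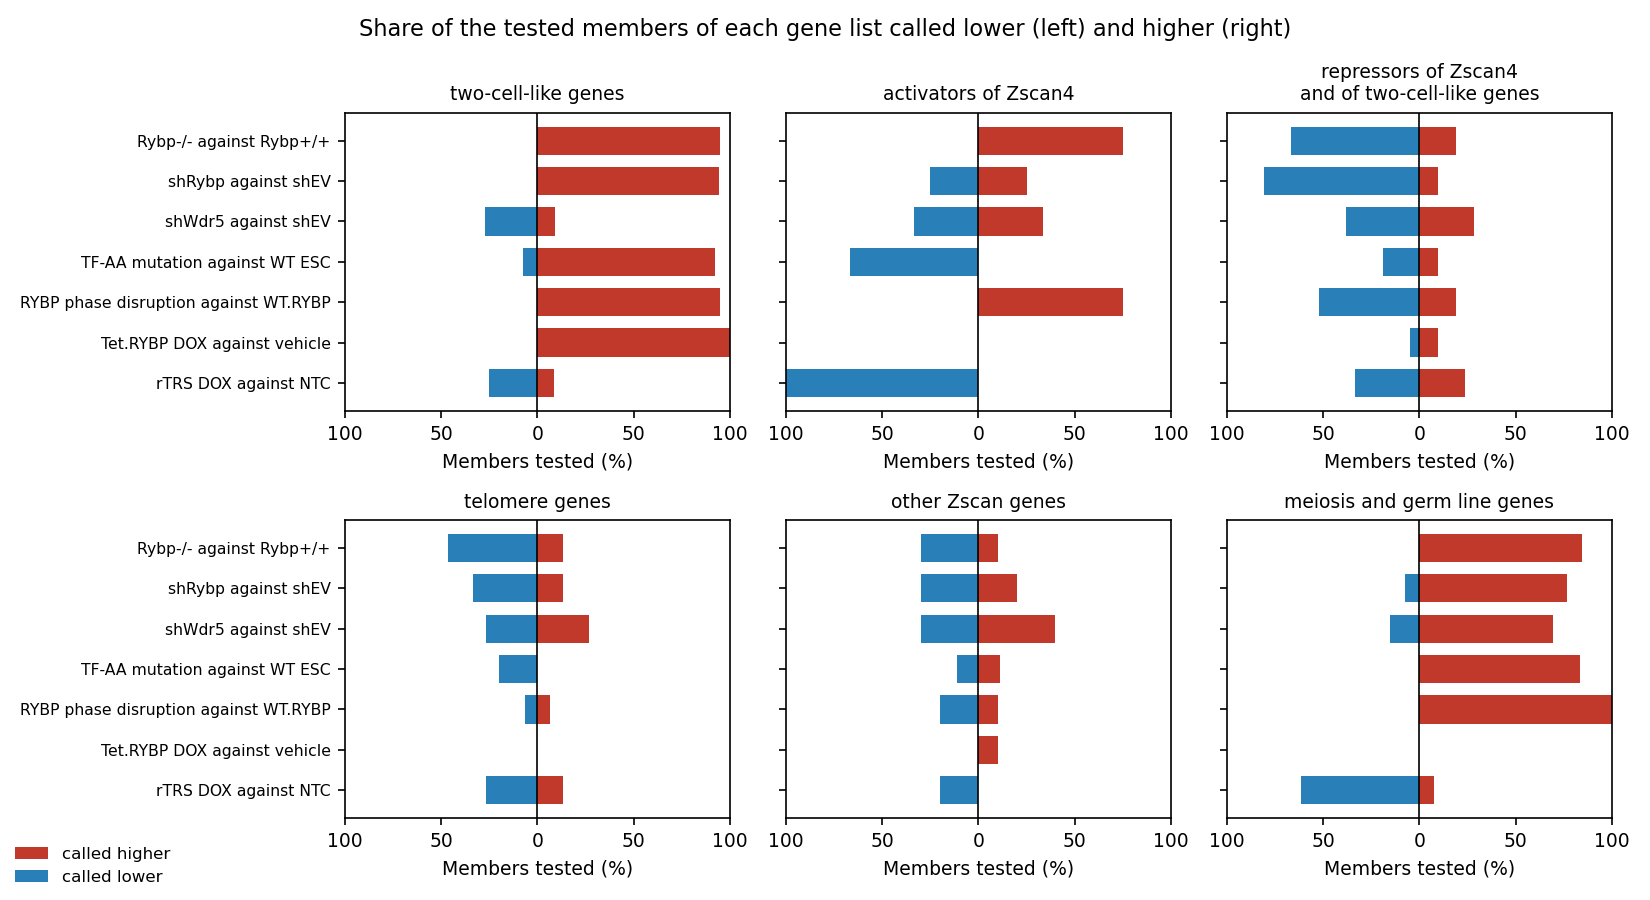
For 6 gene lists and 7 comparisons, the share of the tested members called lower (blue, left) and higher (red, right) by edgeR, in %. The 2-cell-like list lies almost wholly to the right in the 5 comparisons in which the family was higher. It has 3 genes called lower and 1 higher in each of the other 2, of 11 tested with shWdr5 and 12 in rTRS. Over all genes, 31.5% were called in each direction with shWdr5, and 20.4% lower and 23.0% higher in rTRS.

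Of 21 genes known to repress Zscan4 or 2-cell-like genes, including Rybp itself, most changed by less than 1 on the log2 scale. In Rybp-/- 14 of 21 were called lower and 4 higher (median -0.26), the latter 2 without Rybp-/- replicate 1, in DESeq2 and with no filter on low counts and 1 without Rybp-/- replicate 2, beside 22.7% of all genes lower and 22.8% higher. The 14 include Rybp, the deleted gene. With shRybp 17 were called lower, again with Rybp, and 2 higher (median -0.35), beside 26.0% and 26.8% of all genes. With RYBP phase disruption 11 were called lower and 4 higher (median -0.12), beside 17.0% and 16.1% of all genes, and the 4 were 1 in DESeq2, with no filter on low counts, and without either WT.RYBP replicate or RYBP phase disruption replicate 1. With TF-AA mutation, where the family was also higher, 4 were called lower and 2 higher (median -0.04), beside 16.1% and 14.4% of all genes, and the 4 were 8 without WT ESC replicate 1 and the 2 were 1 in DESeq2 and without TF-AA mutation replicate 2. With shWdr5, where the family was lower, 8 were called lower and 6 higher (median -0.06), beside 31.5% of all genes in each direction. In the rTRS libraries labelled DOX 7 were called lower and 5 higher (median -0.15), or 12 and 8 with the replicate number as a block, beside 20.4% and 23.0% of all genes. Ehmt2, the histone H3 lysine 9 methyltransferase G9a, fell by 0.48 in Rybp-/-, by 0.87 with shRybp, by 0.37 with RYBP phase disruption and by 0.44 with TF-AA mutation. Trim28, the corepressor that silences endogenous retroviruses, fell by 0.87 with shRybp and by 0.59 in the rTRS libraries labelled DOX. Chaf1b, a subunit of the chromatin assembly factor CAF-1, fell by 0.82 with shRybp and by 0.69 with shWdr5, where the family was lower. E2f6, a DNA-binding subunit of a non-canonical polycomb complex, went the other way, higher by 1.12 (SE 0.10) with TF-AA mutation, from 22.7 and 22.4 to 47.1 and 51.0 CPM. It was also called higher in Rybp-/- (0.64), with shRybp (0.73), with shWdr5 (0.48) and with RYBP phase disruption (0.41). In Tet.RYBP 2 were called higher, of which 1 was Rybp, and 1 lower, beside 3.63% and 2.39% of all genes. The higher calls were 4 without vehicle replicate 1, 5 without vehicle replicate 2 and 1 without either DOX replicate, and the lower ones 3 without vehicle replicate 1 and 0 without either DOX replicate.

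Telomere genes were called in both directions, except with TF-AA mutation and in Tet.RYBP. With TF-AA mutation 3 of 15 were called lower and 0 higher, beside 16.1% and 14.4% of all genes. Of 15 tested, 7 were called lower and 2 higher in Rybp-/-, beside 22.7% and 22.8% of all genes. With shRybp 5 were called lower and 2 higher, beside 26.0% and 26.8% of all genes. The medians lay between -0.05 and 0.07 over the 7 comparisons. With DOX in Tet.RYBP 0 of 15 passed in edgeR and in DESeq2, and 2 higher and 2 lower had an unadjusted p under 0.05. There, 4 were called higher without vehicle replicate 2 and 2 lower without vehicle replicate 1. Tert, the catalytic subunit of telomerase, fell in Rybp-/- (-0.45, SE 0.08) and rose with shRybp (0.39, SE 0.08) and with shWdr5 (0.83, SE 0.09). Blm, a helicase of recombination, fell in Rybp-/- (-0.45) and with shRybp (-0.60).

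Other genes of the Zscan class were called in both directions in edgeR in 5 of the 7 tables, in part by single calls that DESeq2 did not make. Of 10 tested, 1 was called higher and 3 lower in Rybp-/-, beside 22.8% and 22.7% of all genes. The 3 were 1 without either Rybp-/- replicate and in DESeq2, and the 1 was 2 without Rybp+/+ replicate 1 and 0 without Rybp-/- replicate 2. With shRybp 3 were called lower and 2 higher, beside 26.0% and 26.8% of all genes, the latter 1 without shEV replicate 1 or shRybp replicate 2, with RLE size factors and in DESeq2. With shWdr5 4 of 10 were called higher, or 2 in DESeq2, and 3 lower, beside 31.5% of all genes in each direction. With TF-AA mutation 1 of 9 was called higher and 1 lower, beside 14.4% and 16.1% of all genes. With RYBP phase disruption 1 of 10 was called higher and 2 lower, beside 16.1% and 17.0%. The 1 higher call was 0 in DESeq2 in both of these tables. Zscan10, a factor of the ESC network, fell by 0.67 with RYBP phase disruption, from 141 and 152 to 91.7 and 92.2 CPM, and by 0.65 in the rTRS libraries labelled DOX. Zscan5b rose with DOX in Tet.RYBP (2.04), from 0.360 and 0.319 to 1.66 and 1.15 CPM, and this call was lost in DESeq2 and without vehicle replicate 2 or either DOX replicate. It fell with shRybp (-1.39).

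Germ line and meiosis genes, 13 in the list and all with a row, were mostly called higher where the family was, except with DOX in Tet.RYBP, and also with shWdr5, where it was lower. In Rybp-/- 11 of 13 were called higher (median 1.58), beside 22.8% of all genes, and with TF-AA mutation 10 of 12 (median 2.14), beside 14.4%. With RYBP phase disruption 13 of 13 were called higher (median 1.69), beside 16.1% of all genes, and with shRybp 10 of 13, with 1 lower (median 0.91), beside 26.8% and 26.0%. In the rTRS libraries labelled DOX 8 of 13 were called lower and 1 higher (median -0.63), beside 20.4% and 23.0% of all genes. With shWdr5, where the family was lower, 9 of 13 were called higher and 2 lower (median 0.65), beside 31.5% of all genes in each direction. Dazl, an RNA-binding protein of germ cells, rose there from 9.03 and 10.5 to 55.5 and 57.2 CPM, and Tex101 from 0.748 and 0.911 to 8.55 and 8.69 CPM. Stra8, a gene needed to enter meiosis, rose from 9.94 and 11.1 to 105 and 106 CPM with RYBP phase disruption and fell with shWdr5 (-0.95, SE 0.21). In Tet.RYBP 3.63% of all genes were called higher and 2.39% lower. Of 12 germ line and meiosis genes tested there, 0 passed in edgeR and in DESeq2, and 4 were higher at an unadjusted p under 0.05. Leaving out a vehicle replicate changed the calls.

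Markers of other cell types, and of ESCs, also moved in the other 6 comparisons. Calls among them in Rybp-/- stand beside 22.8% of all genes called higher and 22.7% lower. In Rybp-/- fibroblast or feeder markers (5 of 5 with a row) summed to 341 and 340 CPM against 199 and 201 CPM in Rybp+/+, with 5 called higher. Trophectoderm markers summed to 73.4 and 77.7 against 56.0 and 59.7 CPM, with 4 of 5 called higher, among them Cdx2 (3.86) and Elf5 (2.68), both under 1 CPM in every library of the table. Primitive endoderm markers summed to 16.7 and 15.4 against 7.81 and 9.06 CPM, with Gata4 (0.78), Dab2 (0.95) and Pdgfra (1.43) called higher. Hand1 was the 1 mesoderm marker called (0.60), and of 3 neural markers Nes (0.25) and Tubb3 (0.13) were called higher and Pax6 lower (-1.31).

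With RYBP phase disruption fibroblast or feeder markers summed to 690 and 740 CPM against 944 and 941 CPM in WT.RYBP, with 3 called lower. Of all genes, 16.1% were called higher and 17.0% lower there. Trophectoderm markers summed to 300 and 316 against 268 and 276 CPM, with Cdx2 (1.10), Krt8 (0.14) and Krt18 (0.28) called higher. Hand1 was called higher (2.68), from 3.27 and 2.93 to 19.3 and 20.6 CPM, and T lower (-1.38), from 15.4 and 20.0 to 6.72 and 6.86 CPM. Gata4 (0.59) and Pax6 (0.59) were called higher and Nes lower (-0.33). With TF-AA mutation Col1a2 (3.80), Col1a1 (1.49) and Thy1 (0.84) were called higher and Vim lower (-0.24), and the fibroblast or feeder sum stood at 74.4 and 72.7 against 70.9 and 68.0 CPM in WT ESC. Trophectoderm markers summed to 61.1 and 59.9 against 48.5 and 45.8 CPM, with 2 of 3 tested called higher. Of all genes, 14.4% were called higher and 16.1% lower with TF-AA mutation. Dab2 (1.24) and Nes (0.67) were called higher, Pax6 lower (-3.16, from 2.34 and 1.88 to 0.447 and 0 CPM), and neither of the 2 mesoderm markers tested was called.

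With shRybp trophectoderm markers summed to 187 and 207 CPM against 53.7 and 60.0 CPM in shEV, with 3 of 5 called higher and 1 lower. Marker calls with shRybp stand beside 26.8% of all genes called higher and 26.0% lower. Primitive endoderm markers summed to 25.8 and 29.3 against 10.1 and 13.9 CPM, with 5 of 6 called higher. Of the mesoderm markers Hand1 was called higher, at 9.10 and 9.16 against 1.09 and 0.571 CPM. Nes was called higher (1.55) and Pax6 and Tubb3 lower (-0.95 and -0.68), and of 4 fibroblast or feeder markers tested 3 were called higher and 1 lower, with sums of 109 and 110 against 153 and 154 CPM. Of 8 ESC markers with shRybp 4 were called lower, Utf1 (-0.83), Pou5f1 (-0.66), Esrrb (-0.42) and Zfp42 (-0.38), and 3 higher, and their sum was 6886 and 6862 against 8036 and 8346 CPM. With shWdr5, beside 31.5% of all genes in each direction, 5 were called lower, Pou5f1 (-0.73), Esrrb (-0.48), Zfp42 (-0.41), Nanog (-0.31) and Utf1 (-0.31), and 2 higher. The sum of these 8 markers was 6503 and 6577 against 7562 and 7856 CPM. In Rybp-/- 5 were called higher and 2 lower, with RYBP phase disruption 1 and 3, with TF-AA mutation 2 and 2, and with DOX in Tet.RYBP 1 higher. With shWdr5 primitive endoderm markers summed to 34.9 and 34.2 against 10.3 and 13.7 CPM, with 4 of 6 called higher. Kdr (1.65) and Hand1 (2.06) were called higher there and Mixl1 lower (-1.33), and the neural, fibroblast or feeder and trophectoderm lists had calls in both directions. With DOX in Tet.RYBP Kdr was called higher (1.36), from 2.38 and 4.17 to 8.83 and 7.92 CPM, and Tubb3 (-0.59) and Vim (-0.42) lower. None of 3 trophectoderm and 4 primitive endoderm markers tested was called there in edgeR, beside 3.63% of all genes higher and 2.39% lower. The part of these markers in the Zscan4 level was not tested.

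Beside the cluster, the genes were mostly silent. Of 20 other annotated genes within 500 kb of either end, 12 of them vomeronasal receptors (Vmn1r), 17 or 18 never reached 1 CPM in a given table. Zscan4-ps2 was called in 6 of the 7 tables in the direction of the family. Of its windows of 100 bases, 13.8% were found in no member, so its counts are uncertain like those of the copies. Zscan4-ps2 went from 0.0891 and 0.0373 to 8.07 and 6.98 CPM in Rybp-/- and from 5.10 and 5.99 to 56.5 and 59.1 CPM with RYBP phase disruption. With shWdr5 it fell from 5.99 and 4.91 to 2.06 and 1.78 CPM. In Tet.RYBP, at 0.194 and 0.0290 against 1.09 and 0.488 CPM, it was not called. The nearest gene with steady counts, the zinc finger gene Zik1, stood at 17.2 and 18.3 CPM in Rybp+/+ and 17.7 and 18.6 CPM in Rybp-/-, and was called lower with shRybp (-0.39), with shWdr5 (-0.50) and in rTRS (-0.42). Gm6900 was called higher with shWdr5 (0.86, SE 0.36) and with RYBP phase disruption (3.12, SE 0.72), where it had 1.43 and 0.874 CPM at most.

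The genes with the pattern most like the family were found by the Pearson correlation with the family sum of log2(CPM + 1), centred within each table, over 24 libraries of 6 tables and 13251 genes. Libraries of a table share their controls and depth, so these values are a description. The 10 highest were Gm5662 (r = 0.98), Gm2016, Mael, Gm8300, Id3, Zscan4-ps2, Hpca, Klhl22, Myh6 and 8030474K03Rik (r = 0.94). Mael, a gene of the piRNA pathway in germ cells, rose from 9.35 and 9.44 to 30.2 and 33.9 CPM in Rybp-/- and from 3.34 and 4.05 to 28.4 and 29.2 CPM with TF-AA mutation. Gm2016 was higher by 2.87 in Rybp-/- and 3.89 with TF-AA mutation on the log2(CPM + 1) scale, beside 1.38 and 0.85 for Id3, an inhibitor of basic helix-loop-helix factors. The shWdr5 table was not used to choose them, although its shEV samples also stand in the shRybp table. There 5 of the 10 were called lower and 3 higher, beside 31.5% of all genes in each direction. Zscan4-ps2 (-1.51, SE 0.21) and Hpca, a neuronal calcium sensor (-1.04, SE 0.18), fell, whereas 8030474K03Rik (2.11, SE 0.11) and Klhl22 (1.20, SE 0.06) rose.

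**Figure D5:**
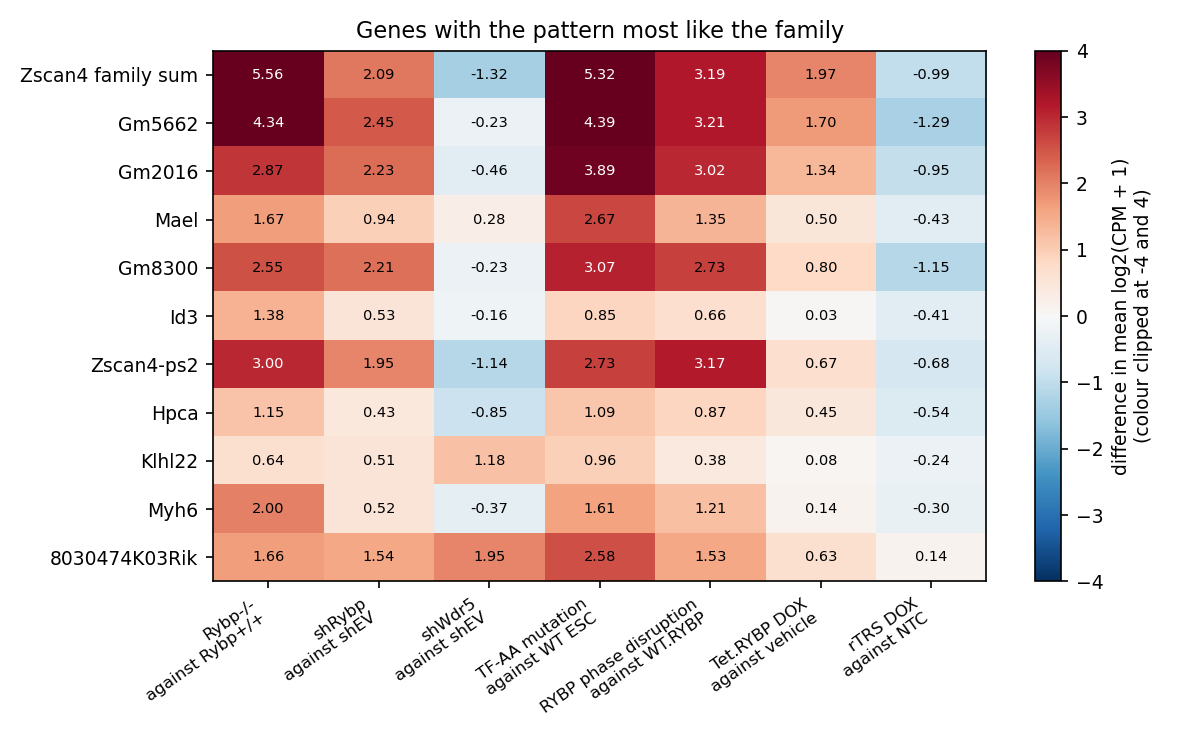
Difference in mean log2(CPM + 1) between the arms of each comparison for the Zscan4 family sum and the 10 genes most like it with the value printed in each cell. Columns other than shWdr5 were used to choose the genes, and in the shWdr5 column the genes differ in direction.

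No peak of histone marks or factors was listed at the cluster. The series has 14 peak lists, 10 from merged replicates and 4 from 1 library each. They cover H3K27ac, H3K4me3, WDR5 and STAT3 in Rybp+/+ and Rybp-/-, STAT3 and RING1B in the Tet.Rybp.Stat3 line with and without DOX, and RING1B in shEV and shStat3. Not 1 of them lists a peak between the first and the last member or within 2.5 kb of a member's start. A window of the same size held a peak of H3K4me3 at 65.8% of 22367 protein-coding genes in Rybp+/+ and 65.8% in Rybp-/-, and a peak of H3K27ac at 49.5% and 52.4%. For WDR5 these shares were 44.9% and 47.2%. For RING1B they were 39.4% to 52.4% over the 4 lists. For STAT3 they were 6.94% in Rybp+/+, 5.90% in Rybp-/-, 8.31% without DOX and 54.9% with DOX in Tet.Rybp.Stat3, so in the 3 lists with low shares most genes had no listed peak. The nearest peak was the H3K4me3 peak at chr7:11079519-11081102 (mm9) in Rybp-/-, 405 kb before the cluster, and peaks of H3K4me3, H3K27ac and WDR5 were listed there in both genotypes. The nearest RING1B peak in shEV lay 1377 kb past the cluster. A list without a peak shows only that none was called, and how reads that fit several copies were treated in the peak calls was not tested.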

How the data were processed

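RNA was measured in 26 libraries. Per the labels, the authors trimmed reads with Trim Galore, aligned them to mm9 with STAR and counted genes with HTSeq. The deposited values are whole-number counts per gene, and rows that name no gene were left out of library sizes. The kit and its strand are not given in the sources used here. The authors called peaks after Bowtie2 alignment, and the deposited peak lists give the fold enrichment, a ratio, and the −log10 q-value of each peak. The RNA libraries were mapped to groups from their labels, with 2 assumptions: columns headed NTC in the Tet.RYBP table are the vehicle samples, and the column with the prefix S5 in the rTRS table is DOX replicate 2. The 28 count columns hold 26 libraries, since shEV stands in 2 tables.

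Gene identifiers were matched to GENCODE symbols of the same build (37205 of 37620). Each table was fitted alone in edgeR 4.0.16 (R 4.3.3): TMM scaling, its default filter on low counts, quasi-likelihood test, 2 against 2, Benjamini-Hochberg adjustment over all genes tested, calls at adjusted p under 0.05. The family fit replaced the 5 rows by their sum. The SE is the log2 coefficient over the root of the F value. The fit was tested on simulated data. Alternatives included DESeq2 1.42.0. The replicates of every group differed by more than counting noise (index of dispersion 2.10 to 13.1), so none was counted as a duplicate.

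The members and gene lists were chosen with earlier results of these data known. Genes named are all members, the targets, up to 4 called genes per list and comparison with the largest change and at least 1 CPM, the 10 most alike genes and called neighbours. Values of these genes in further comparisons, and those of Zik1 where it was not called, were added after they were seen.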

Additional observations from a re-analysis of the deposited data

How the results depend on the processing

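The family sum, as a description of a family selected on these values, kept its direction in all 70 alternatives run: RLE size factors, DESeq2, no filter on low counts, scaling by total count, Zscan4-ps2 added to the sum, the replicate block, and each library left out. With 1 library left in an arm, it is assumed to vary like the other group. Leaving out 1 library, the log2 fold change ranged from 6.88 to 7.59 in Rybp-/-, 2.07 to 2.15 with shRybp, -1.44 to -1.28 with shWdr5, 5.92 to 8.57 with TF-AA mutation, 3.14 to 3.27 with RYBP phase disruption, 2.49 to 3.13 in Tet.RYBP and -1.10 to -0.98 in rTRS. Of 272 alternatives for single copies, 268 kept the call and direction. The exceptions were in Tet.RYBP, where Zscan4d was called without vehicle replicate 2 (3.22), Zscan4e was not called without DOX replicate 2 (1.64), and Zscan4f was not called without vehicle replicate 1 (2.23) or DOX replicate 2 (2.36).

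The replicate numbers pair no samples by the labels. With the replicate block the family sum was 7.20 in Rybp-/-, 2.11 with shRybp, -1.36 with shWdr5, 6.70 with TF-AA mutation, 3.21 with RYBP phase disruption, 2.78 in Tet.RYBP and -1.04 in rTRS, and same-numbered libraries correlated in their deviations by 0.00 to 0.13 over genes. The block moved no number of genes called by over 1.5 times (5525 against 4412 with TF-AA mutation).

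Genes called fell to 2903 with TF-AA mutation and 2659 with RYBP phase disruption in DESeq2, against 4412 and 4814 in edgeR, and the cause was not tested. Leaving out 1 library gave 2724 to 4767 with TF-AA mutation and 406 to 1566 in Tet.RYBP. Scaling by total count moved the median of all genes with shRybp to 0.18, and the family there was 2.27. Counts called per list stayed within 1.5 times in 571 of 672 alternatives. Spearman's rho shared 7 of the 10 most alike genes, and windows of 1 or 5 kb, peaks of −log10 q of at least 2 and peak centres gave no peak either. Depth limits the copies in Rybp+/+, WT ESC and Tet.RYBP vehicle, which held 3 to 45 family counts each.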
